A study of Mus musculus with 12 samples.

Results

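The 8 genes *Sycp1*, *Sycp2*, *Sycp3*, *Syce1*, *Syce2*, *Tex12*, *Hormad1* and *Hormad2* encode proteins of the meiotic chromosome axis and of the synaptonemal complex. They were chosen by name, and all 8 were found among the 37675 genes listed for each library. Whole testes of C57BL/6NHsd mice were taken at postnatal day (PND) 7, 14, 17, 21 and 28 with 2 mice per age, and the labels give no treatment or mutation for any group. The RNA of each PND 7 mouse was spread over 2 barcodes, which were combined here, so that 12 libraries stand for 10 mice. The levels are RPKM values, reads scaled by exon length and by the counted reads of the library, and the tests use the read counts.

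In meiotic prophase each pair of sister chromatids is organized along a protein axis, and the axes of homologous chromosomes are joined along their length by the synaptonemal complex. SYCP2 and SYCP3 form the axis, which becomes the lateral element of the complex, SYCP1 forms the transverse filaments that bridge the lateral elements, and SYCE1, SYCE2 and TEX12 are part of the central element in which the filaments meet. HORMAD1 and HORMAD2, proteins with a HORMA domain, lie on axes that have not yet synapsed and are largely removed from synapsed axes with the help of the ATPase TRIP13. The first wave of spermatogenesis brings spermatogonia, spermatocytes, round spermatids and elongating spermatids into the testis in that order. The paper describes additional cell types at each later age. The series thus follows the entry into the stages that build this structure and then the addition of spermatids.

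The coordinates of the genes are those of mm9, and those in the files equal the GENCODE M1 annotation. *Sycp1* (ENSMUSG00000027855) lies on the minus strand at chr3:102622422-102740023, and *Sycp2* (ENSMUSG00000060445) on the minus strand at chr2:178079998-178142390. *Sycp3* (ENSMUSG00000020059) lies on the plus strand at chr10:87922314-87935981. Of its 1264 exon bases, 660 are also exon of *Chpt1*, which is transcribed from the other strand. *Syce1* (ENSMUSG00000025480) is at chr7:147963128-147973753 on the minus strand, *Syce2* (ENSMUSG00000003824) at chr8:87396010-87412120 on the plus strand, and *Tex12* (ENSMUSG00000032065) at chr9:50365253-50369373 on the minus strand. *Syce2* overlaps *Gcdh* but shares 0 exon bases with it. *Hormad1* (ENSMUSG00000028109) is at chr3:95363599-95391593 on the plus strand and *Hormad2* (ENSMUSG00000020419) at chr11:4245817-4341108 on the minus strand. All 8 are annotated as protein coding, and the values cover the exons of a gene together. Whether strand was used in counting is not given in the sources used here, so reads of *Sycp3* and *Chpt1* in the shared bases may not be separated. *Chpt1* itself was between 3.11 and 8.7 RPKM in the 10 mice.

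Since 7 of the 8 genes were called higher at PND 14 than at PND 7, the sequence upstream of their start sites was searched for 5 short motifs of factors known from germ cells or the cell cycle. The promoters are RefSeq windows of the GRCm38.p6 build, from 250 bases before to 50 after a start site, and all 8 genes matched, with 10 start sites. The motif CNCCTCAG of STRA8, the factor that starts the meiotic program, was found in *Sycp1*, *Syce2*, *Tex12* and *Hormad2*, which is 4 of 8 genes, beside 9.12% of the 27025 genes with a promoter. TTCCCGCC of the E2F factors was found in *Syce2*, *Tex12* and *Hormad1*, 3 of 8 genes beside 2.52% of all. *Syce2*, which is in both of these counts, is the member that was not called higher at PND 14. CCAAT of NF-Y was found in *Sycp3* alone, beside 41.06% of all genes. GGCAGTT of the MYB factors and TGACGTCA of the CREB and CREM factors were found in 0 of the 8, beside 4.76% and 2.03% of all. Both strands were searched and a gene counted once for any of its start sites. The median GC content of the windows was 61.2% in the members and 52.7% over all, and its part in these counts was not tested. A match is a run of letters and not a binding site, and its absence says only that these letters are not in this window.

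The 4 genes with a STRA8 or E2F motif upstream of the start site are shown with *Syce1*, the member called higher in PND 21 and 28 than in PND 14 and 17, which held 0 matches. *Sycp2*, which was not called there, also held 0 matches and is not shown. Each line is the 150 bases before the first transcribed base, 5′ to 3′ on the gene's strand, with the matches in capitals. They are the second start site of *Syce2* (chr8:84872108-84872257, plus strand), *Tex12* (chr9:50561269-50561418, minus strand), the first start site of *Hormad1* (chr3:95559527-95559676, plus strand), *Hormad2* (chr11:4441083-4441232, minus strand) and *Syce1* (chr7:140787855-140788004, minus strand).
Syce2: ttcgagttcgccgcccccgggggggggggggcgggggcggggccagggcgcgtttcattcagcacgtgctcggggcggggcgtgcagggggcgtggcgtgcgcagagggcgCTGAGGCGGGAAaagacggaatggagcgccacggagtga
Tex12: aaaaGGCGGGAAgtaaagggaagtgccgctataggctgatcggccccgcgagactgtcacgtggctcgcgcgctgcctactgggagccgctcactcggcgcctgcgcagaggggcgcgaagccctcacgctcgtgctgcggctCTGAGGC
Hormad1: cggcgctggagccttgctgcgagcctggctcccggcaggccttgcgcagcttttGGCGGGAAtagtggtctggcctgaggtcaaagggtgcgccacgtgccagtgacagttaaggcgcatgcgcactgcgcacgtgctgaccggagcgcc
Hormad2: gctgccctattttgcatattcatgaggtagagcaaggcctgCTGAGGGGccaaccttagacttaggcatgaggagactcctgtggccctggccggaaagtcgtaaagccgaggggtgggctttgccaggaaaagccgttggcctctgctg
Syce1: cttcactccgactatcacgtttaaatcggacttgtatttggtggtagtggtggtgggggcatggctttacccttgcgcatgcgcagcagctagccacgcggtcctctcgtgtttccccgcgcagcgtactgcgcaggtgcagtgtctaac
In *Syce2* the capitals hold the STRA8 match at -39 to -32 and the E2F match at -35 to -28, which overlap. In *Tex12* the E2F match stands at -146 to -139, and the STRA8 match runs from -7 to the first transcribed base, of which the upstream part is shown. The E2F match of *Hormad1* lies at -96 to -89 and the STRA8 match of *Hormad2* at -109 to -102. All of these matches read on the strand opposite to the gene. The match of *Sycp1* lies downstream of the start, at 33 to 40, and that of *Sycp3* at 12 to 16.

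Per mouse, between 3994026 and 13559548 reads were counted on genes, and PND 17 mouse 1 held 3.395 times the counts of mouse 2. The members had between 55 counts (*Hormad1* in PND 7 mouse 2) and 10268 counts (*Sycp2* in PND 17 mouse 1), so all were far above the 3 counts that an observed 0 would allow. All 8 passed edgeR's filter on low counts, as did 16860 genes in all. A gene was called differentially expressed where edgeR's quasi-likelihood test gave it an adjusted p (Benjamini-Hochberg, over all genes tested) under 0.05 and the fold change reached 2. An exact permutation test of 2 mice against 2 cannot give less than 0.333, so the calls rest on a spread that edgeR shares across genes. PND 14 mouse 1 stood apart from PND 14 mouse 2. The spermatid genes *Prm1*, *Prm2*, *Tnp1*, *Tnp2* and *Acrv1* summed to 434 RPKM in it, against 16.1 RPKM in mouse 2 and 17.6 and 17.0 RPKM on PND 17. For the fold changes of the members and of named genes of related lists that use this mouse, the value without it is also given. The germ cell genes *Ddx4* and *Dazl* were present in every mouse, with a sum between 140 and 449 RPKM.

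*Sycp1*, the transverse filament gene, stood at 33.2 and 32.4 RPKM in the PND 7 mice and at 152 and 212 RPKM in the PND 14 mice. It was 181 and 175 RPKM on PND 17, 127 and 119 RPKM on PND 21, and 106 and 101.1 RPKM on PND 28. The PND 7 mice were thus the lowest, every PND 14 or 17 mouse lay above every PND 21 or 28 mouse in RPKM, and the mean fell from 182 ± 42.8 RPKM on PND 14 to 103 ± 3.27 RPKM on PND 28 (SD, n = 2 mice). From PND 7 to 14 the log2 fold change was 2.37 (standard error, SE, 0.25, with an edgeR adjusted p = 8.63e-05), and it was 2.61 without PND 14 mouse 1. In a fit of PND 14 and 17 against PND 21 and 28 it was -0.41 (SE 0.17, edgeR adjusted p = 0.0672), and *Sycp1* was not called. Without PND 14 mouse 1 it was -0.53 with an edgeR adjusted p = 0.02, which passed the test but not the 2-fold limit. This value also depended on the scaling of the libraries, since it was -0.66 with library totals, the scaling behind RPKM, and -0.26 with RLE, DESeq2's median-ratio scaling. Its adjusted p over the alternatives ran from 0.00506 to 0.248, and the fold stayed under 2. In bulk tissue, fewer cells of a type and less RNA per cell cannot be told apart.

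*Sycp2*, an axis and lateral element gene, was at 26.0 and 18.7 RPKM on PND 7 and at 91.4 and 137 RPKM on PND 14. It then measured 131 and 103 RPKM on PND 17, 105 and 108 RPKM on PND 21, and 96.7 and 93.6 RPKM on PND 28. The PND 7 mice were the lowest, and the range of the PND 14 mice took in every mouse of the later ages. The rise had a log2 fold change of 2.26 (SE 0.30, edgeR adjusted p = 0.000442), and 2.54 without PND 14 mouse 1. Between PND 14 and 17 and the later ages *Sycp2* had a log2 fold change of 0.07 (SE 0.20, edgeR adjusted p = 0.806), a value near 0 whose sign was not stable. It was -0.07 without PND 14 mouse 1, -0.012 without PND 17 mouse 2, -0.022 without the filter on low counts and -0.19 with library totals.

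*Sycp3*, the partner of *Sycp2* in the lateral element, was the highest member in RPKM in all mice of PND 7, 14, 17 and 21. Its values were 47.0 and 42.4 RPKM on PND 7, 210 and 286 RPKM on PND 14, and 311 and 308 RPKM on PND 17. They were 217 and 235 RPKM on PND 21 and 167 and 216 RPKM on PND 28, so both PND 17 mice lay above the mice of every other age. The rise from PND 7 to 14 was 2.38 on the log2 scale (SE 0.26, edgeR adjusted p = 0.000118), and 2.60 without PND 14 mouse 1. The step from PND 17 to 21 was -0.33 (SE 0.25, edgeR adjusted p = 0.421) and was not called. The ratio of *Sycp2* to *Sycp3* in RPKM stayed between 0.333 and 0.58 in the 10 mice, and the mice of PND 7, 14, 21 and 28 overlapped in it.

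**Figure D1:**
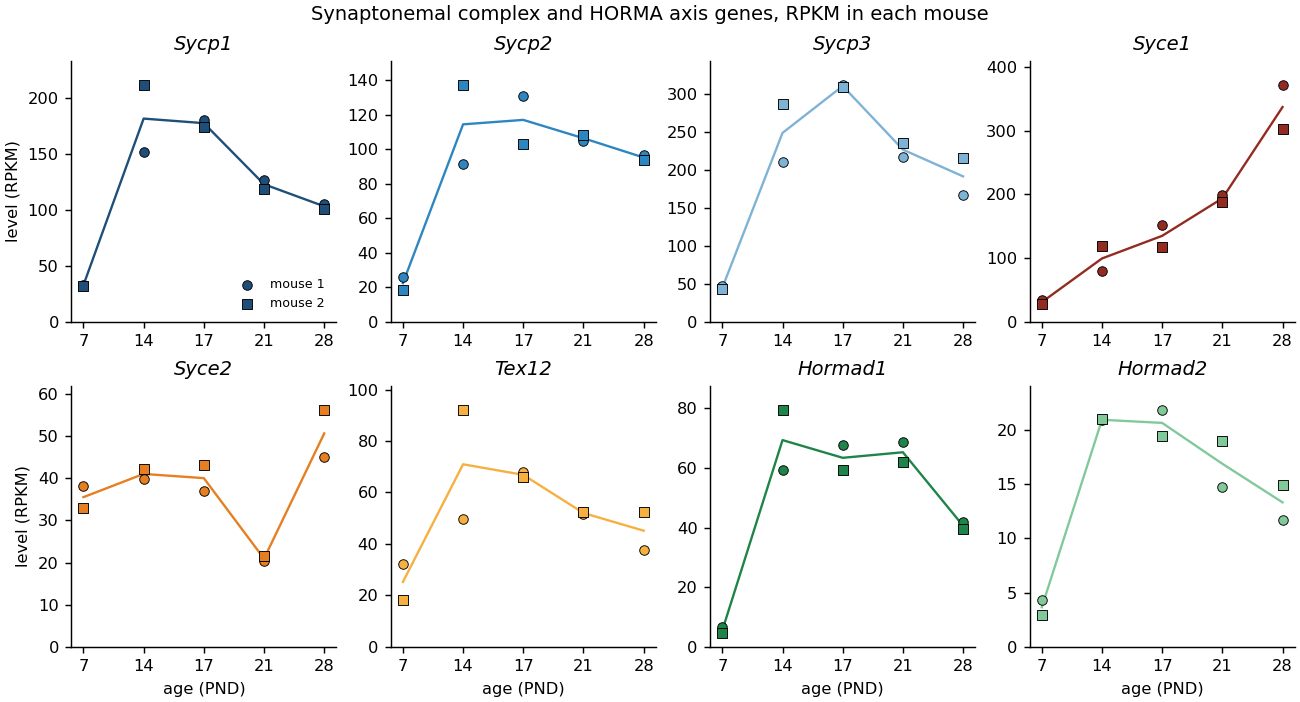
Level in RPKM (vertical axis, from 0, with its own scale in each panel) of the 8 genes by age in PND (horizontal axis, evenly spaced). Circles are mouse 1, squares mouse 2 and lines join the means of 2 mice. *Syce1* has its highest mean, 337 RPKM, at PND 28, and *Syce2* has its lowest, 20.9 RPKM, at PND 21. The other 6 genes have their highest mean RPKM at PND 14 or 17, which depends on the scaling. In CPM (counts scaled by the TMM-adjusted library total) the mean of *Sycp2* was highest at PND 28, 669 against 647 at PND 17. That of *Hormad1* was highest at PND 21, 114 against 106 CPM at PND 14.

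The 3 central element genes followed 3 different courses. *Syce1*, whose product is recruited to the central element with SYCE3, had 33.6 and 28.0 RPKM on PND 7, 80.1 and 119 RPKM on PND 14, and 153 and 117 RPKM on PND 17. It had 199 and 189 RPKM on PND 21 and 372 and 302 RPKM on PND 28, where it lay above *Sycp3* in both mice. Its mean was higher at each successive age, the mice of PND 14 and 17 overlapped, and those of every other neighbouring pair of ages did not. At PND 28 it was 337 ± 49.5 RPKM, against 99.4 ± 27.3 RPKM on PND 14 (SD, n = 2 mice).

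*Syce1* was called higher from PND 7 to 14, with a log2 fold change of 1.60 (SE 0.28, edgeR adjusted p = 0.00239) and 1.87 without PND 14 mouse 1. It was called again from PND 21 to 28, with 1.02 (SE 0.27, edgeR adjusted p = 0.0403). This second call stood near both limits and was lost in 6 of the 10 fits that left out a mouse, where the value ran from 0.84 (without PND 28 mouse 1) to 1.18 (without PND 28 mouse 2), and with library totals, where it was 0.80. The 6 mice whose absence ended the call were those of PND 17, 21 and 28, and the values without them were 1.02 for either PND 17 mouse, and 0.98 and 1.08 for PND 21 mice 1 and 2. The adjusted p over the alternatives ran from 0.00481 to 0.287. Against PND 14 and 17 together, PND 21 and 28 had *Syce1* higher by 1.41 on the log2 scale (SE 0.19, edgeR adjusted p = 0.000192). This call was made in all 10 fits that left out a mouse, between 1.27 (without PND 14 mouse 1) and 1.61. The exons of *Syce1* with more than 10 reads numbered 3 to 5 of 13 in the PND 7 barcodes, 10 in PND 17 mouse 2 and 13 in every other library, and this number also depends on depth. In the PND 7 barcodes *Syce1* had 112 to 275 counts. There *Sycp3*, with 149 to 337 counts, had 7 to 10 of 12 such exons, and *Syce2*, with 170 to 429, had 6 to 9 of 11. How the PND 7 reads of *Syce1* lay over its exons was not tested, and its PND 7 level and rise carry this limit.

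*Syce2*, whose product forms with TEX12 the long fibres of the central element, was 38.2 and 32.8 RPKM on PND 7, 39.9 and 42.2 RPKM on PND 14, and 37.0 and 43.1 RPKM on PND 17. It was 20.3 and 21.6 RPKM on PND 21 and 45.0 and 56.3 RPKM on PND 28. Both PND 21 mice were below every mouse of the other ages, and both PND 28 mice were above every other mouse. From PND 7 to 14 its log2 fold change was 0.10 (SE 0.22, edgeR adjusted p = 0.777) and 0.16 without PND 14 mouse 1, so this was the member not called in that comparison. From PND 17 to 21 it had -0.81 (SE 0.23, edgeR adjusted p = 0.0429), which passed the test but not the 2-fold limit. From PND 21 to 28 it was called higher, with 1.49 (SE 0.23, edgeR adjusted p = 0.00313), and it was called there in all 10 fits that left out a mouse, between 1.33 and 1.63. The overlapping gene *Gcdh* was also lower at PND 21 than at PND 17, with 8.1 and 6.16 RPKM on PND 17 and 3.02 and 3.72 RPKM on PND 21, a log2 fold change of -0.95 (SE 0.32, edgeR adjusted p = 0.0807) that did not pass the test. From PND 21 to 28 *Gcdh* had -0.33 (edgeR adjusted p = 0.594), with 2.67 and 1.94 RPKM on PND 28, where *Syce2* was called higher. Its part in the lower level of *Syce2* at PND 21 was not tested.

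*Tex12*, the partner of *Syce2* in these fibres, had 32.1 and 18.25 RPKM on PND 7, 49.7 and 92.2 RPKM on PND 14, and 67.9 and 65.8 RPKM on PND 17. It had 51.6 and 52.4 RPKM on PND 21 and 37.8 and 52.5 RPKM on PND 28. The mice of an age differed more for *Tex12* than for any other member at PND 7, where the log2 ratio of mouse 1 to mouse 2 was 0.82, beside at most 0.34 between the barcodes of a mouse. The rise from PND 7 to 14 was 1.41 (SE 0.37, edgeR adjusted p = 0.0208). It was 1.80 without PND 14 mouse 1, and it was not called without PND 14 mouse 2 (0.81), without PND 7 mouse 2 (1.08) or with only the 4 mice of the comparison (1.42). Its adjusted p over the alternatives ran from 0.000175 to 0.19.

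The HORMA domain genes had the lowest levels of the 8 at PND 7. *Hormad1*, whose product is needed for synapsis and for break formation, was 6.455 and 4.56 RPKM on PND 7, 59.1 and 79.5 RPKM on PND 14, and 67.6 and 59.2 RPKM on PND 17. It was 68.6 and 61.9 RPKM on PND 21 and 41.8 and 39.4 RPKM on PND 28, so the mice of PND 14, 17 and 21 overlapped and those of PND 28 lay below them in RPKM. The rise from PND 7 to 14 was the largest of the 8 genes, 3.56 on the log2 scale (SE 0.27, edgeR adjusted p = 1.67e-05), and 3.77 without PND 14 mouse 1. From PND 21 to 28 *Hormad1* had -0.46 (SE 0.24, edgeR adjusted p = 0.281) and was not called.

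*Hormad2*, whose product marks unsynapsed axes for the checkpoint kinase ATR, was 4.34 and 2.95 RPKM on PND 7, 20.9 and 21.0 RPKM on PND 14, and 21.9 and 19.5 RPKM on PND 17. It was 14.8 and 19.0 RPKM on PND 21 and 11.7 and 14.9 RPKM on PND 28. It was the lowest of the 8 genes in all 10 mice. Its rise from PND 7 to 14 was 2.42 (SE 0.29, edgeR adjusted p = 0.000215), and 2.45 without PND 14 mouse 1. In PND 14 and 17 against PND 21 and 28 *Hormad2* had -0.19 (SE 0.19, edgeR adjusted p = 0.425), and -0.21 without PND 14 mouse 1. The ratio of *Hormad1* to *Hormad2* in RPKM was 1.49 and 1.55 in the PND 7 mice and between 2.64 and 4.65 in the other 8 mice.

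**Figure D2:**
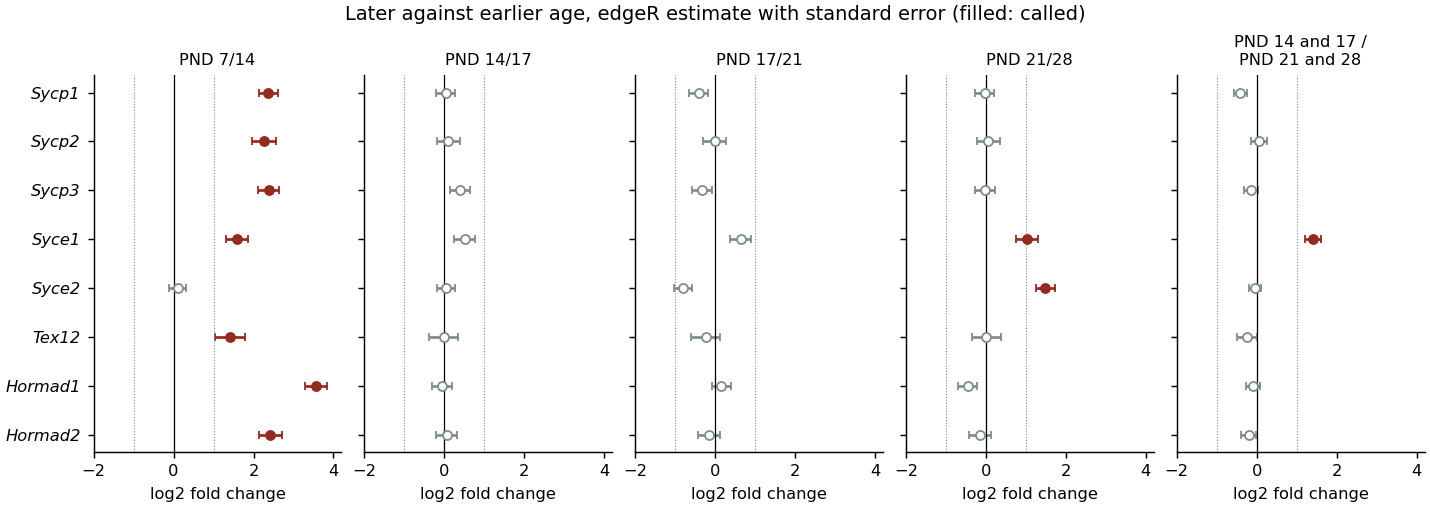
Log2 fold change of the later over the earlier age (horizontal axis) for the 8 genes in 5 comparisons, as edgeR's estimate with its standard error from 10 mice. Filled points are calls and dotted lines mark a 2-fold change. Between PND 7 and 14, 7 of 8 genes are called higher, between PND 14 and 17 and between PND 17 and 21 the number is 0, and later only *Syce1* and *Syce2* are called.

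Counted over the members, 7 of 8 were called higher from PND 7 to 14 and 0 lower, where 13.5% of all genes tested were called higher and 5.43% lower. The median log2 fold change was 2.32 over the members and 0.11 over all genes tested. From PND 14 to 17 edgeR called 0 members, and it called 0% of all genes. At an unadjusted p under 0.05 it had 769 genes, 4.56% of those tested, of which 0 were members. DESeq2 called 1 gene and limma under the criteria of the study's methods called 4, and neither called a member. The paper reported more differentially expressed genes in this step than limma called here, and its preprocessing was not reproduced. From PND 17 to 21 edgeR called 0 members in either direction, as did DESeq2 and limma, beside 9.29% of all genes higher and 1.05% lower, and *Syce1* and *Syce2* had an unadjusted p under 0.05. From PND 21 to 28 it called 2 members higher and 0 lower, beside 7.37% higher and 0.297% lower. In PND 14 and 17 against PND 21 and 28, 1 member was called higher and 0 lower, beside 21% and 8.03% of all genes. DESeq2 and limma called 0 members lower in any of the 5 comparisons. Comparisons that have an age in common share its mice, so their counts are not independent.

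Markers of other cells moved with these steps. From PND 7 to 14 the 5 markers of pachytene and later spermatocytes, among them *Piwil1* and *Hspa2*, were all called higher, and their summed level was 31.7 and 33.4 RPKM in the PND 7 mice and 689 and 930 RPKM in the PND 14 mice. The 5 spermatid markers were called higher too, from 1.47 and 0 RPKM in sum to 434 and 16.1 RPKM, and 4 of them were at 0 in both PND 7 mice. Their log2 fold changes ran from 6.35 to 10.7, and from 2.45 to 7.45 without PND 14 mouse 1, the mouse with 434 RPKM. Limma called 1 of these 5, and 4 of the 5 spermatocyte markers. The 5 spermatogonial, the 6 Sertoli cell and the 5 Leydig cell markers had 0 calls in this step in edgeR, DESeq2 and limma, and 2 of the Sertoli cell markers had an unadjusted p under 0.05 in edgeR. From PND 21 to 28 the 5 spermatid markers were all called higher, from 103 and 94.4 RPKM to 8410 and 10353 RPKM in sum, and 3 of 5 Leydig cell markers were called higher, from 110 and 204 RPKM to 577 and 454 RPKM in sum. In PND 14 and 17 against PND 21 and 28, 5 of 6 Sertoli cell markers, 3 of 5 spermatogonial markers and both preleptotene markers, *Stra8* and *Prdm9*, were called lower. The number of Sertoli cell markers called was 6 with library totals and 2 without PND 14 mouse 1, and that of spermatogonial markers was 4 with library totals and 2 without PND 14 mouse 1. The summed Sertoli cell markers lay between 200 and 289 RPKM in the first 4 of these mice and between 63.0 and 126 RPKM in the other 4. The part of these shifts in the members' levels was not tested.

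**Figure D3:**
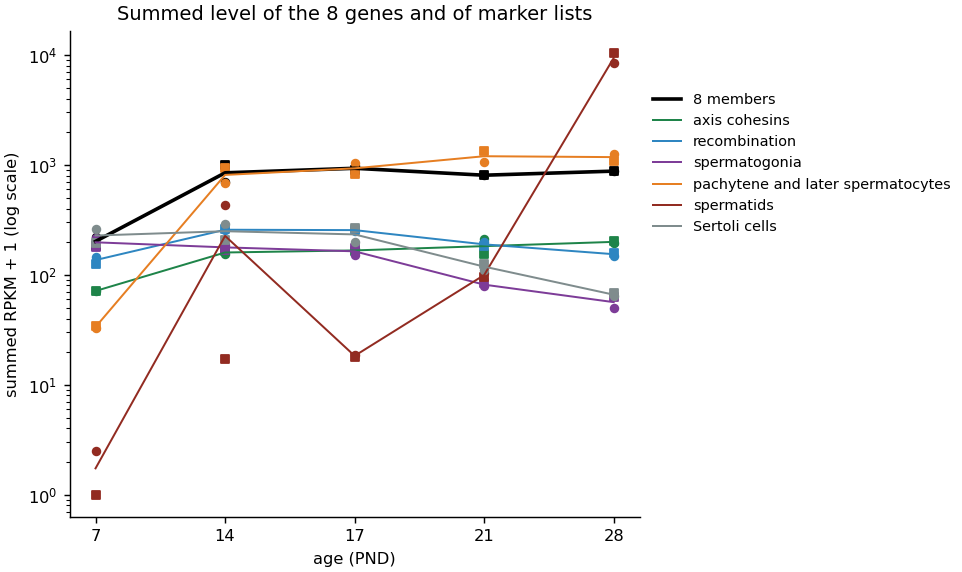
Summed RPKM plus 1 on a log axis, by age in PND, for the 8 genes (black) and for 6 lists of other genes. Circles are mouse 1, squares mouse 2 and lines join the means of 2 mice. The 8 genes sum to 221 and 180 RPKM on PND 7 and to between 703 and 989 RPKM in the 8 later mice, while the spermatid list reaches 8410 and 10353 RPKM on PND 28 and separates the PND 14 mice.

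The sum of the 8 genes changed little after PND 14 while its makeup did. It was 221 and 180 RPKM on PND 7, 703 and 989 RPKM on PND 14, 971 and 891 RPKM on PND 17, 803 and 806 RPKM on PND 21 and 878 and 876 RPKM on PND 28. Within this sum *Syce1* held 11.4% and 12.0% at PND 14, 24.8% and 23.4% at PND 21 and 42.4% and 34.5% at PND 28. *Sycp1* held 21.6% and 21.4% (mice 1 and 2) at PND 14 and 12.0% and 11.5% at PND 28. *Syce2* held 17.3% and 18.2% at PND 7 and between 2.52% and 6.43% in all later mice. A share falls when another member rises, so these values are not independent of each other.

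**Figure D4:**
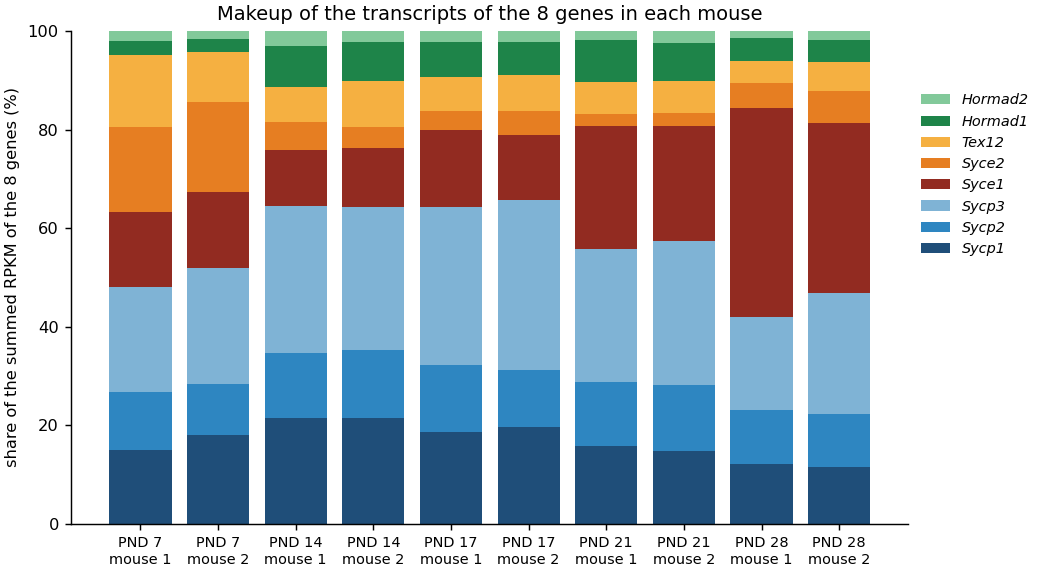
Share of each gene in the summed RPKM of the 8 genes (vertical axis, percent, stacked from 0 to 100) for each of the 10 mice. The part of *Syce1* (dark red) grows from 11.4% and 12.0% at PND 14 to 42.4% and 34.5% at PND 28, and that of *Syce2* (dark orange) is largest at PND 7.

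To compare the members without a library scale, each gene's RPKM was divided by the geometric mean of the 8 genes in the same mouse. Against the 4 mice of PND 14 and 17, the 4 mice of PND 21 and 28 had *Syce1* higher by 1.38 on the log2 scale, from 0.45 ± 0.25 to 1.83 ± 0.48 (SD, n = 4 mice). *Sycp1* was lower, from 1.095 ± 0.064 to 0.65 ± 0.18, a difference of -0.45. Both had an exact permutation p of 0.0286 (2-sided, n = 4 mice against 4), the smallest that 4 against 4 can give, and an adjusted p of 0.114 over the 8 genes. The groups did not overlap for either gene, and neither passed the test after adjustment. However large the differences of these genes, the smallest p possible could not pass given the other p-values, so the missing calls decide nothing. The other 6 genes differed by between -0.27 and 0.04, with adjusted exact p between 0.229 and 0.8. Without PND 14 mouse 1 the difference was 1.29 for *Syce1* and -0.44 for *Sycp1*, and both had an exact permutation p of 0.0571, the smallest that 3 mice against 4 can give, with an adjusted p of 0.152. *Tex12* then had the same p, with a difference of -0.325. Each group mixes 2 ages, so its spread holds the change between them. The geometric mean includes *Syce1* and *Sycp1* themselves, so a rise of 1 member lowers the values of the others. With the axis cohesin genes as the reference, the difference was 1.13 for *Syce1* (exact permutation p = 0.0286). For *Sycp1* it was then -0.69 (exact permutation p = 0.0571), which was not the smallest p possible.

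Ratios between partners within a mouse need neither a library scale nor a reference set. *Syce1* over *Sycp1* in RPKM was 1.01 and 0.864 at PND 7, 0.528 and 0.559 at PND 14, 0.845 and 0.67 at PND 17, 1.57 and 1.58 at PND 21, and 3.52 and 2.99 at PND 28. *Syce1* over *Syce2* was 0.879 and 0.852 at PND 7, between 2.01 and 4.13 at PND 14 and 17, 9.83 and 8.75 at PND 21, and 8.27 and 5.37 at PND 28. *Syce2* over *Tex12*, genes whose products assemble together, was 1.19 and 1.80 at PND 7, 0.393 and 0.411 at PND 21 and 1.19 and 1.07 at PND 28. The ratio at PND 28 thus returned into the range of the PND 7 mice or just below it, after lower values in all mice of the ages between.

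**Figure D5:**
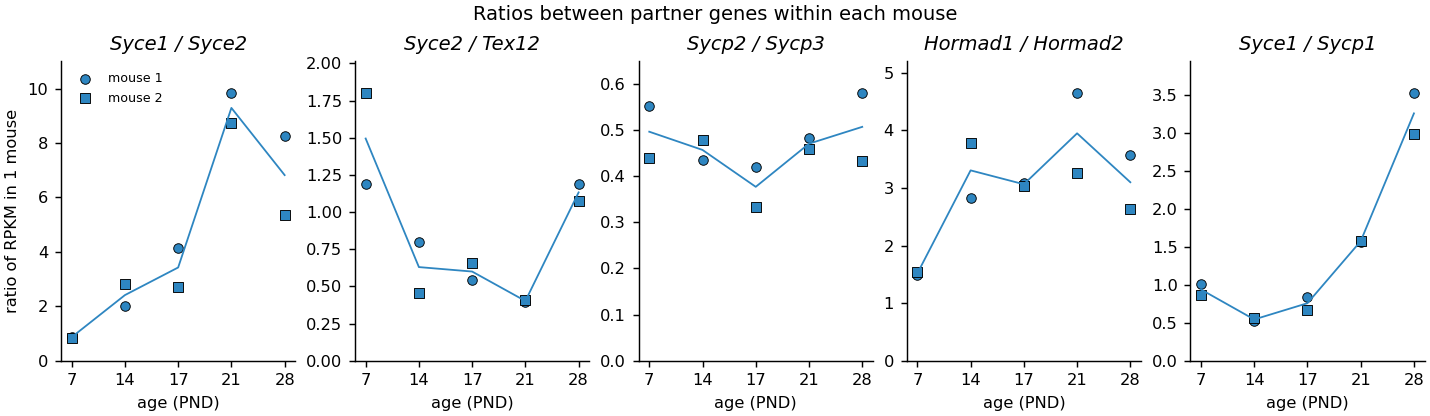
Ratio of the RPKM of 2 genes within a mouse (vertical axis, from 0, with its own scale in each panel) by age in PND. Circles are mouse 1, squares mouse 2 and lines join the means. *Syce1* over *Sycp1* is 0.528 and 0.559 at PND 14 and 3.52 and 2.99 at PND 28, whereas *Sycp2* over *Sycp3* stays between 0.333 and 0.58 throughout.

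By level per length the order of the genes changed with age. At PND 7 *Sycp3* was above all others, *Syce2*, *Sycp1*, *Syce1*, *Tex12* and *Sycp2* followed with overlapping mice between neighbours, and *Hormad1* and *Hormad2* were apart at the bottom. At PND 14 and 17 the order began with *Sycp3* and *Sycp1*, whose mice overlapped at PND 14 and not at PND 17. *Syce2* had moved down to the place above *Hormad2*. At PND 21 no neighbours overlapped, and *Syce1* stood between *Sycp3* and *Sycp1*. At PND 28 *Syce1* came before *Sycp3*, *Sycp1* and *Sycp2*, and *Syce2*, *Tex12* and *Hormad1* came next, with overlap between *Syce2* and *Tex12* and between *Tex12* and *Hormad1*. The highest member exceeded the lowest 10.8-fold and 14.4-fold in the PND 7 mice and 31.8-fold and 20.2-fold in the PND 28 mice.

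Other genes of the same structure and process gave a mixed picture. Of 4 further synaptonemal complex genes 3 were tested, and *Syce3*, which encodes another central element protein, was called higher from PND 7 to 14 with a log2 fold change of 2.03, and 2.35 without PND 14 mouse 1. *Six6os1*, also of the central element, had -0.51 (adjusted p = 0.0839 from edgeR) in this step, and -0.64 without that mouse. Limma and library totals each called 2 genes of this list higher in this step, and DESeq2 and RLE 1. In PND 14 and 17 against PND 21 and 28, *Six6os1* had -0.63 (adjusted p = 0.00395 from edgeR), and -0.57 without that mouse. It passed the test but not the 2-fold limit. EdgeR called 0 genes of the list there, and limma and library totals each called 1 lower. The level of *Syce3* was 12.7 and 16.9 RPKM on PND 7 and 99.9 and 100.3 RPKM on PND 28, and that of *Six6os1* was 18.9 and 20.1 RPKM and then 5.81 and 5.95 RPKM. *Sycp2l* was too low to be tested, at most 0.42 RPKM in any mouse.

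Of the 4 meiotic cohesin genes, whose products hold sister chromatids at the axis, 1 was called higher from PND 7 to 14, *Smc1b* with 1.46, and 1.63 without PND 14 mouse 1. In PND 14 and 17 against PND 21 and 28 the kleisin *Rec8* was called higher, with 1.26, and the kleisin *Rad21l* lower, with -1.20 (adjusted p = 0.00373 and 0.00106 from edgeR). Both calls were also made without PND 14 mouse 1, with 1.43 and -1.15. Limma under the criteria of the study's methods called 0 of the cohesin genes higher and 1 lower in this comparison. DESeq2 and edgeR with RLE each called 2 higher and 1 lower, and library totals gave 1 higher and 1 lower. Of 5 genes that act with the HORMAD proteins 4 were found and tested, and edgeR, DESeq2 and limma called 0 in any of the 5 comparisons. With library totals 1 was called lower in PND 14 and 17 against PND 21 and 28, where 2 had an unadjusted p under 0.05 in edgeR. *Trip13*, whose product removes the HORMADs, was 15.3 and 13.8 RPKM on PND 7, between 12.3 and 13.8 RPKM on PND 14 and 17, and 4.86 and 7.4 RPKM on PND 28, with a log2 fold change of -0.50 (adjusted p = 0.0547 from edgeR) between PND 14 and 17 and the later ages, and -0.53 without PND 14 mouse 1.

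Of 11 recombination genes 7 were called higher from PND 7 to 14, with *Spo11*, the enzyme of break formation, the highest at 3.40, and 3.60 without PND 14 mouse 1. The number called was 6 without PND 14 mouse 1, where the lost call was *Msh5*, 6 with DESeq2, 6 with RLE, 7 with library totals and 5 with limma under the criteria of the study's methods. In PND 14 and 17 against PND 21 and 28, *Dmc1*, the meiotic recombinase, and *Tex11* were called lower, with -1.04 and -1.21, and 0 of the 11 higher. Without PND 14 mouse 1 these values were -1.08 and -1.24, and again 2 were called lower and 0 higher. DESeq2 called 1 lower and 1 higher in this comparison. The median log2 fold change of this list from PND 7 to 14 was 1.22, beside 2.32 for the members. The list of other HORMA domain genes held 2, and both were called higher from PND 7 to 14. Of these, *Mad2l1*, of the spindle checkpoint, had 1.22 and *Mad2l2* had 2.41, and without PND 14 mouse 1 they had 1.35 and 2.62. *Mad2l2* was called higher again in PND 21 and 28 than in PND 14 and 17, with 1.40, and 1.298 without that mouse. *Mad2l1* had -0.98 there and was not called, whereas without that mouse it was called lower, with -1.05.

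Among the 10356 genes whose mean reached 10 CPM (the count scaled by the TMM-adjusted library total), the pattern over the 10 mice most like the mean of the members was that of *Taf5*, with Pearson's r = 0.993 of log2(CPM + 1). *Bub1* followed with 0.987, then *Uba2* with 0.982, *Lin9* with 0.981 and *Pdhb* with 0.980. *Taf5* had 7.94 and 6.19 RPKM on PND 7, 15.6 and 17.2 RPKM on PND 14 and 14.1 and 14.6 RPKM on PND 28. With Spearman's rho 2 of these 5 genes were again among the first 5, and with log2(RPKM + 1) 3 were. For single members the nearest gene was *Tex101* for *Sycp1* (0.989), *Dtl* for *Sycp2* (0.993), *Trappc8* for *Sycp3* (0.992) and *Lztfl1* for *Syce1* (0.997). It was *Prdx4* for *Syce2* (0.984), *Orc2* for *Tex12* (0.987), *Rad9b* for *Hormad1* (0.995) and *Gm15529* for *Hormad2* (0.991). With Spearman's rho the nearest gene stayed the same only for *Syce2*, and with log2(RPKM + 1) only for *Sycp2*, *Syce2* and *Hormad1*. These values describe 10 points that share libraries and depth and carry no test.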

How the data were processed

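Ribosomal RNA-depleted total RNA of whole testes was sequenced on the SOLiD 4. Per the study's methods, LifeScope was used for alignment to mm9 and reads were filtered. The authors deposited for each Ensembl gene the raw count of reads on exons, the number of exons with over 10 reads and an RPKM value normalized by exon length and counted reads. No read was aligned again. The barcodes of a PND 7 mouse were combined by summing counts and averaging RPKM. Rec114 was found under an older symbol through RefSeq synonyms and Ankrd31 was not found. Counts of all 10 mice were fitted with edgeR 4.0.16 in R 4.3.3 (TMM, filterByExpr, 1 mean per age). The standard error is the absolute log2 fold change divided by the square root of F. Exact tests, ratios and patterns used Python 3.11.15, scipy 1.17.1 and pandas 2.3.3. Alternatives used DESeq2 1.42.0 and limma 3.58.1 on log2(RPKM + 1) with limits of 0.01 on the unadjusted p, 2 on the fold change and 10 on the RPKM difference. The functions were tested on simulated data. The members, lists, named genes, motifs and tests were chosen with earlier results of these data known. Named genes were the 8 members, for each list those with the largest and smallest change or against its direction, the 5 most alike in pattern and 1 per member. A result under this rule is not reported here. Overlapping genes, *Msh5* and the spermatid markers of PND 14 mouse 1 were named after their values were seen, and the fit of related genes without that mouse was chosen after seeing the data. P-values of edgeR, DESeq2 and limma measure the spread between mice of an age. The spread behind the exact permutation p-values also holds the change between the ages of a group. Isoforms and proteins were not analysed here.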

Additional observations from a re-analysis of the deposited data

How the results depend on the processing

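Of the counts of members called, 205 values under the alternatives stayed within 1.5 times the reported count, 14 fell and 1 rose. The count called higher from PND 21 to 28 was 1 in place of 2 with library totals, without a filter on low counts, with age plus replicate block, without small structural RNAs and mitochondrial genes, with only the mice of the comparison, and with limma under each of its 3 settings. It ranged from 1 to 2 when each mouse was left out, and the lost call was in each case *Syce1*, whose reported value lies at the 2-fold limit. Without the fold threshold 1 member, *Syce2*, was called lower from PND 17 to 21, in place of 0. The count called higher from PND 7 to 14 ranged from 6 to 7 with each mouse left out. Values that changed sign belonged to members that were not called. With each mouse left out, the PND 14/17 values ran from -0.23 to 0.35 for *Sycp1*, from -0.21 to 0.48 for *Sycp2*, from -0.44 to 0.55 for *Tex12* and from -0.30 to 0.22 for *Hormad1*, each lowest without PND 14 mouse 1 and highest without PND 14 mouse 2. That of *Hormad2* from PND 21 to 28 ran from -0.38 (without PND 21 mouse 1) to 0.16 (without PND 21 mouse 2). In PND 14 and 17 against PND 21 and 28, *Tex12* ran from -0.44 (without PND 14 mouse 1) to 0.053 (without PND 14 mouse 2), and *Sycp2* had -0.19 with library totals and -0.18 under each limma setting. The level of *Sycp2* relative to the axis cohesins differed by -0.21. The causes were not tested. Library totals moved the median of all genes by -0.22 from PND 21 to 28 and by -0.26 in PND 14 and 17 against PND 21 and 28, and RLE by 0.10 from PND 17 to 21 and by 0.14 in the latter. The reported fit did not pair mice of the same number across ages. The correlation of same-numbered deviations ran from -0.25 to 0.40 and exceeded 0.1 in 2 of 10 pairs of ages. A factor shared by same-numbered mice of some ages was not tested. The replicate block changed no other call.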
